A study of Mus musculus with 24 samples.

Results

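The genes described here encode the proteins of the cytosolic ribosome. They were chosen by name: every non-control probe on the array whose gene symbol begins with Rpl, Rps or Rplp followed by a number was taken, the S6 kinase genes (Rps6k) were left out, and the brightest probe over the arrays stood for each gene. The rule found 83 of 34844 gene names, of which 49 belong to the large subunit, 31 to the small subunit and 3 to the stalk. They carried 183 probes, and 27 genes had 1 probe. In all, 81 genes were well above background on every array of at least 1 group and were tested. The other members were Rpl3l, well above background on 1 of 24 arrays, and Rpl39l, on 5 of 24.

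RNA came from liver and white adipose tissue of male C57BL/6 mice aged 2 months that carry human PER1, a core repressor of the circadian clock. Control mice carry hPER1S714 and mutant mice carry hPER1S714G, so the human gene is common to every group. Mice were kept for 10 days in a light-dark cycle and sampled at ZT1 or ZT13, where ZT counts hours after lights on. Genotype, tissue and time gave 8 groups of 3 arrays. The promoter of the human gene, the number of lines and whether each array was 1 animal are not given in the sources used here, so p-values measure the spread between these arrays, which may be technical.

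A ribosome is assembled in the nucleolus from ribosomal RNA and about equal molar amounts of its proteins, and the genes for those proteins are transcribed at high, similar rates in most cells. Their messenger RNAs are known for a run of pyrimidines at the first bases, through which the mTORC1 kinase controls their translation; translation of these messages is known to follow a daily rhythm in liver. The study's comparison therefore asks, for this family, whether message levels differ with the PER1 variant, with time of day or between tissues.

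Levels are given as scaled log2 signal, the log2 of an array's background-corrected signal minus the log2 of its 75th percentile, so 1 unit is a doubling. The arrays lay on 3 slides. Slide 1 held all control ZT1 arrays and 2 of the mutant adipose ZT1 arrays, slide 2 the rest of the ZT1 arrays, the control adipose ZT13 arrays and 1 control liver ZT13 array, and slide 3 the other ZT13 arrays. The share of spots clearly brighter than background was 45.5 to 71.2% by array, and no spot was saturated. All 8 hepatocyte markers were higher in liver and all 7 adipocyte markers were lower in liver. The summed relative signal of the adipocyte markers was 477 to 716 in adipose and 9.51 to 16.7 in liver. Hepatocyte markers summed to 1070 to 1900 in liver, but reached 125 to 734 in adipose, where none of them was below background on all arrays. All 5 endothelial, 5 fibroblast and 4 mesothelial markers were lower in liver. The other lists were mixed, with 1 of 6 macrophage markers higher and 3 lower, 1 higher and 1 lower of 5 for T cells, 1 higher of 4 for B cells and 1 higher of 3 for neutrophils. Of 3 erythroid markers 2 were higher and 1 lower, of 2 muscle markers 1 was higher and 1 lower, and of 4 proliferation markers 2 were lower. The clock gene Arntl was 3.91 log2 units higher in mutant than control liver at ZT13 (SE 0.21, limma adjusted p = 4.23e-06). The number of arrays, not a read depth, limits the precision.

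At ZT13, where control and mutant livers lay mostly on the same slide, no ribosomal protein gene passed the test between genotypes. None of 81 was called (limma, adjusted p under 0.05 over all genes), against 3.02% of all genes. Before adjustment, 0 of 81 had p under 0.05. Their differences ran from -0.29 to 0.33 with a median of 0.02. The median size of a difference was 0.06 log2 units, against 0.199 over all genes tested. For 79 of 81 genes the 95% interval of the difference lay within 2-fold in either direction, and for 64 within 1.5-fold. On slide 3 alone, with fewer control arrays, the count was also 0. That count has no share of all genes beside it and is not read as a result about the family.

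Rps6 encodes the small-subunit protein that S6 kinases phosphorylate. Its scaled signal in liver at ZT13 was 5.82, 5.82 and 6.04 in controls and 5.73, 6.04 and 6.09 in mutants. The groups overlapped. Rpl7l1, a nucleolar relative of Rpl7 that acts in ribosome assembly, had the lowest p among the genes with a positive difference. Its values were 0.81, 0.81 and 0.92 in controls and 1.04, 1.22 and 1.26 in mutants. The mutant arrays were all above the controls, a separation in either direction that 29.4% of all genes also showed, and the difference of 0.33 (SE 0.21) did not pass the test (adjusted p = 0.541).

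In adipose tissue no member was called at either time. At ZT1 the median difference between mutant and control was -0.05, with 1 of 81 genes at an unadjusted p under 0.05, and 0% of all genes were called. At ZT13 the median was 0.18, against 0.06 over all genes, 77 of 81 members had a positive difference, and 1 had an unadjusted p under 0.05. The count of positive members has no share over all genes beside it. The share of all genes called there was 0.0428%. Rpl7l1 again had the lowest p, at 0.57 (SE 0.21, adjusted p = 0.868). Its values were -1.05, -0.65 and -0.63 in controls and -0.32, -0.24 and -0.06 in mutants, without overlap, a separation that 25.3% of all genes showed. Control adipose at ZT13 was on slide 2 and mutant adipose on slide 3, so slide and genotype cannot be told apart within that comparison alone. With slide as a block in a fit of all 24 arrays, which borrows the slide difference from the other groups, the median was 0.01. Intervals were wider than in liver: 64 of 81 genes at ZT1 and 68 at ZT13 had a 95% interval within 2-fold. Hepatocyte markers were lower in mutant than control adipose at ZT1, with a median of -3.77. None was called, and 6 of 8 had an unadjusted p under 0.05. Their summed relative signal was 266 to 734 in controls and 149 to 275 in mutants. Their part in the result was not tested.

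**Figure D1:**
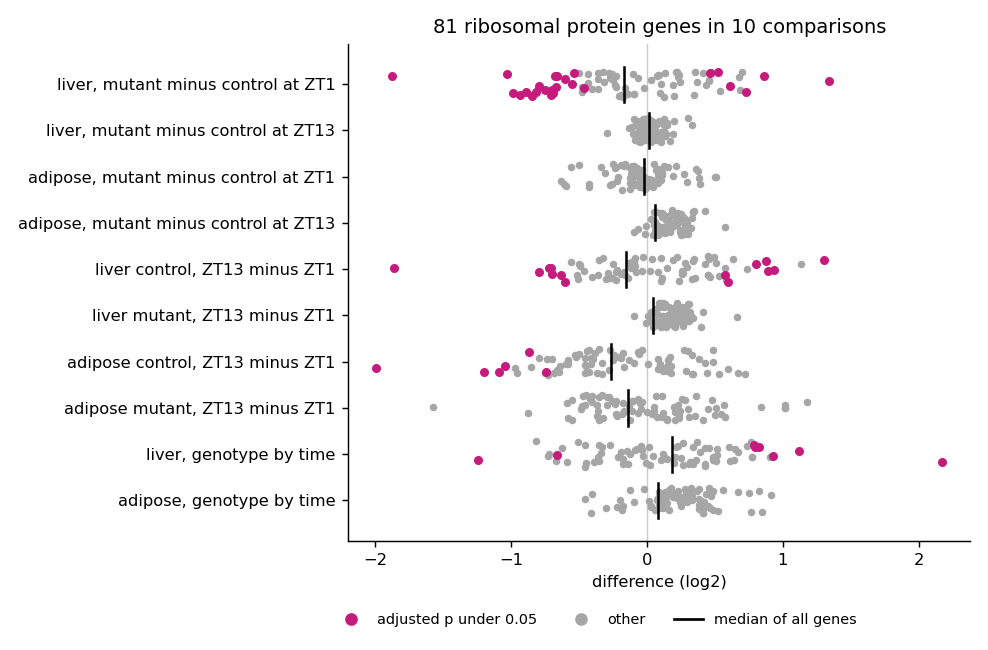
Difference in log2 units of each of the 81 ribosomal protein genes tested, 1 point a gene, in the 10 comparisons within a tissue. Points in colour passed the limma test and the vertical bar is the median of all genes. The liver comparison of genotypes at ZT13 runs from -0.29 to 0.33 and that at ZT1, which sets slide 2 against slide 1, from -1.87 to 1.34.

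In liver at ZT1 the comparison gave 25 called members, 6 higher and 19 lower in the mutant. That is 30.9% of the family, against 45.3% of all genes. The genes named among those higher were Rpl21 (1.34), Rps19 (0.73), Rps2 (0.61), Rps7 (0.52) and Rpl30 (0.46). Among those lower were Rpl10l (-1.87), Rpl28 (-1.03), Rpl38 (-0.98), Rpl37a (-0.94) and Rps13 (-0.89). Every control array here was on slide 1 and every mutant array on slide 2, so slide and genotype cannot be told apart within the comparison. With slide as a fixed or a random block over 24 arrays, 0 of 81 were called. The SE of Rpl21 was 0.335 with the fixed block and 0.175 without, so that count is not read as a result about the family. The direction also turned with the scaling: with arrays set relative to their own median, 30 were higher and 2 lower, with 44.6% of all genes called, and the median of all genes moved from -0.17 to 0.34. Leaving out 1 array moved the count to between 14 and 42, the highest without control replicate 2 (53.5% of all genes called) and the lowest without mutant replicate 2 (33.8%). Markers of several cell types were called in the same comparison. Of the hepatocyte markers 4 of 8 were lower in the mutant, and their summed relative signal was 1660 to 1810 in controls and 1150 to 1400 in mutants. Of the T cell markers 2 of 5 tested were lower, with sums of 3.58 to 4.22 and 2.39 to 2.82, and in each group 1 of the 6 on the list was not well above background on any array. Of 5 endothelial markers 3 were higher and 2 lower, with sums of 6.43 to 8.48 and 7.06 to 7.37. Their part in the result was not tested.

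Mutant adipose at ZT1 is a single group that was split over slides, with 2 arrays on slide 1 and 1 on slide 2, so within it a difference between slides and a difference between samples cannot be told apart. Rpl21, a large-subunit protein gene at chr5:147646040-147646581 (mm9, plus strand), read 2.54 and 2.88 on the slide 1 arrays of that group and 4.37 on its slide 2 array. In liver it read 3.16, 3.36 and 3.64 in ZT1 controls on slide 1 and 4.56, 4.64 and 4.99 in ZT1 mutants on slide 2. On slide 3 its liver values were 4.58 to 4.92. Within each tissue the slide 1 arrays were the lowest and did not overlap those of slide 2. In adipose they held both genotypes, and in liver they were the control ZT1 arrays alone.

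Rps19, a small-subunit protein mutated in Diamond-Blackfan anaemia, showed the same order. Its liver values were 3.57 to 3.79 on slide 1, 4.38 to 4.54 on slide 2 and 4.45 to 4.68 on slide 3. Its adipose values were 3.87 to 4.07, 4.34 to 4.59 and 4.43 to 4.61. Rpl10l, an intronless copy of Rpl10 known for its part in spermatogenesis, ran the other way. It was dim, well above background on 23 of 24 arrays, and read -2.47 to -0.80 in liver on slide 1 against -3.78 to -3.31 on slide 2.

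Over the whole family, 24 of the 25 genes called in liver at ZT1 had the same sign in the slide 2 minus slide 1 step inside mutant adipose, and 71 of all 81 did. The sets of arrays do not overlap, and across the 81 genes the values had a Pearson r of 0.844, given as a description since the genes share arrays and the step rests on 1 array against 2. Neither the counts nor r were set beside those of all genes, so they are not read as particular to the family. The median size of that step inside a single group was 0.44 log2 units, and 0.76 for the 25 genes. Different probes of a gene did not always follow: the brightest Rpl21 probe was 1.34 higher in mutant liver at ZT1, another was 0.81 higher and the third -0.48. For Rpl27a the brightest probe gave -0.60 and another gave 1.02. The brightest Rpl28 probe gave -1.03 and the other 0.485 (limma adjusted p = 0.165). The brightest Rpl10a probe gave -0.81 and the other 0.17 (adjusted p = 0.283). Both probes of Rpl38 and both of Rps13 were called lower. For Rps2 the brightest probe gave 0.61 and the other -0.45 (adjusted p = 0.0482), so its probes were called in opposite directions.

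**Figure D2:**
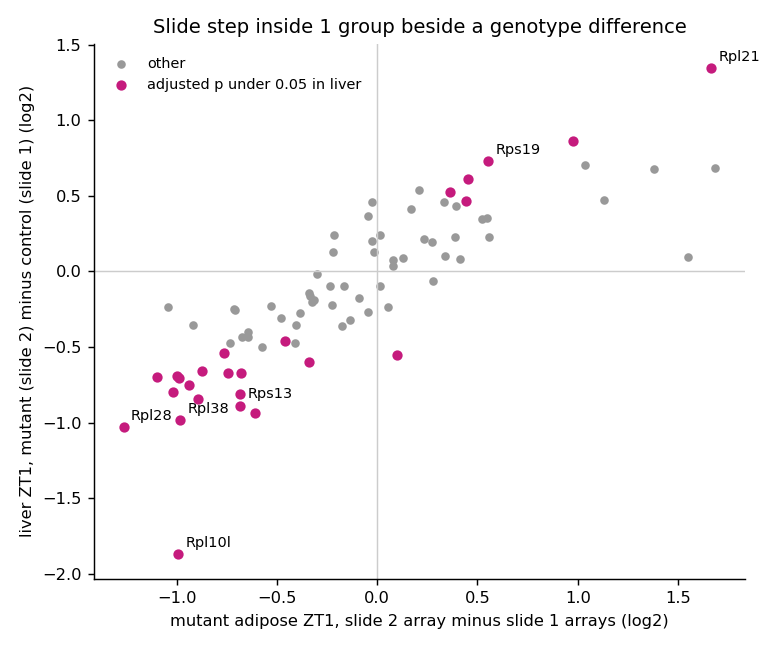
Each point is a ribosomal protein gene. The horizontal axis is the slide 2 array minus the mean of the slide 1 arrays inside mutant adipose at ZT1, and the vertical axis is mutant minus control in liver at ZT1, both in log2 units. Genes called in liver are in colour, and 24 of 25 lie in the quadrants of equal sign.

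In mutant liver, where ZT1 lay on slide 2 and ZT13 on slide 3, no member was called between the times, against 1.98% of all genes. Before adjustment, 3 of 81 passed 0.05. The median difference was 0.20, above 0.05 for all genes, and 79 of 81 were positive. That count of positive members has no share over all genes beside it. Slide and time cannot be told apart within this comparison. Rpl7l1 had the lowest p, with 0.10, 0.70 and 0.74 at ZT1 and 1.04, 1.22 and 1.26 at ZT13. Its groups did not overlap, like those of 30.6% of all genes, and the difference of 0.66 (SE 0.21) had an adjusted p of 0.153. Rps27a, which encodes ubiquitin fused to a ribosomal protein, followed at 0.34 (SE 0.15, adjusted p = 0.327).

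In control liver, with ZT1 on slide 1 and ZT13 on slides 2 and 3, 7 members were higher and 7 lower at ZT13. That is 17.3% of the family against 51.1% of all genes. Rpl21 (1.30), Rpl6 (0.89), Rpl34 (0.87), Rps19 (0.80) and Rps7 (0.60) were named among those higher. Rpl10l (-1.86), Rpl28 (-0.79), Rpl38 (-0.72), Rpl29 (-0.71) and Rpl10a (-0.70) were named among those lower. Rpl32 (0.94) was also called, but its groups overlapped. With slide as a fixed or random block none was called, but the SE of Rpl21 was 0.383 with the fixed block and 0.175 without. That count has no share of all genes beside it and is not read as a result about the family. With arrays relative to their own median 56 were higher and 1 lower, with 56.5% of all genes called, as the median of all genes moved from -0.15 to 0.49. Without control ZT1 replicate 2 the count was 35, with 57.3% of all genes called. In the same arrays 3 of 6 macrophage markers were called lower at ZT13, with sums of 72.7 to 84.2 at ZT1 and 55.3 to 58.1 at ZT13. Of the T cell markers 2 of 5 tested were lower, with sums of 3.58 to 4.22 and 1.9 to 2.69, and both neutrophil markers tested were lower, with sums of 1.21 to 1.43 and 0.358 to 0.582. In each group 1 T cell and 1 neutrophil marker were not well above background on any array. Their part in the result was not tested.

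Control adipose, with ZT1 on slide 1 and ZT13 on slide 2, had 0 members higher and 6 lower at ZT13, 7.41% of the family against 15.1% of all genes. They were Rpl10l (-1.99), Rpl29 (-1.20), Rpl38 (-1.09), Rps13 (-1.04), Rpl24 (-0.87) and Rpl12 (-0.74). Rpl38, known for its part in the translation of Hox messages, read 5.52, 6.37 and 6.41 at ZT1 and 4.93, 4.94 and 5.16 at ZT13. With slide as a block none was called, but the times lie on different slides here, so that count is not read as a result about the family. Leaving out control ZT1 replicate 3 gave 0 (1.7% of all genes called), and leaving out ZT1 replicate 2 gave 1 (5.79%). Leaving out ZT13 replicate 1, 2 or 3 gave 0, with 0.955%, 3.58% and 1.1% of all genes called. With arrays relative to their own median the split was 5 higher and 1 lower, with 18.3% of all genes called, as the median of all genes moved from -0.27 to 0.24. Markers of other cells moved in the same arrays. The median difference over the T cell list was -1.20, with 2 of 5 tested markers called lower, and the summed relative signal of its 6 markers was 2.05 to 2.71 at ZT1 and 0.88 to 1.58 at ZT13. The macrophage list summed to 53.6 to 69.3 at ZT1 and 30.1 to 42.9 at ZT13, with 1 of 6 called lower. Hepatocyte markers summed to 266 to 734 at ZT1 and 125 to 229 at ZT13, with none called. In the other marker lists 1 of 4 B cell, 1 of 3 neutrophil and 1 of 2 muscle markers tested were called lower, and 1 endothelial marker was higher and 1 lower of 5. Their part in the result was not tested. In bulk tissue, fewer cells of a type and less RNA per cell cannot be told apart.

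In mutant adipose no member was called between times, against 1.98% of all genes. Before adjustment, 12 of 81 had p under 0.05. Here and in the other comparisons, the unadjusted counts of members have no share over all genes beside them and are not read as a signal. Mutant adipose is the tissue and genotype whose ZT1 arrays were split over slides 1 and 2. Without its slide 2 array, replicate 3, 8 members were higher and 11 lower at ZT13, with 38.9% of all genes called in that fit.

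The genotype-by-time term asks whether the daily difference itself differed between genotypes. In liver it called 8 members, 6 with a positive and 2 with a negative term, which is 9.88% of the family against 31.2% of all genes. Each of the 8 was also called in control liver over time, a comparison that sets slide 1 against the others. With slide as a block the count was 0, but the SE of Rpl21 was 0.395 with the fixed block and 0.247 without. That 0 has no share of all genes beside it and is not read as a result about the family. With arrays relative to their own median 1 term was positive and 16 negative, with 32.4% of all genes called, as the median of all genes moved from 0.18 to -0.36. Leaving out 1 array gave 2 to 22, the lowest without mutant ZT1 replicate 2 (22.7% of all genes called) and the highest without control ZT1 replicate 2 (42.5%). In adipose the term called 0 of 81, with 2 at an unadjusted p under 0.05 and 0.124% of all genes called, and its median was 0.23 against 0.08 over all genes.

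The largest count of called members was between tissues. At the main scaling, 79 of 81 genes were higher in liver than in adipose over the 4 matched pairs of groups and 0 were lower, 97.5% of the family. The share of all genes called was 75.4% in either direction and 41.9% in the direction of liver. The median difference was 0.63 log2 units, against 0.14 over all genes. It was 0.64 for the large subunit, 0.62 for the small subunit and 0.54 for the stalk. The members not called were Rps19, at 0.04 (SE 0.08), and Rpl10l, at -0.03 (SE 0.23). In the matched pairs the median was 0.56 in controls and 0.43 in mutants at ZT1, and 0.80 in controls and 0.66 in mutants at ZT13, with 75 to 81 of 81 genes positive. The medians of all genes in these pairs were 0.151, -0.059, 0.225 and 0.176, in that order.

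The size and the sign of that shift rested on the scaling. Without any scaling the median was -0.08, while that of all genes was -0.57. With quantile normalization, which gives every array the same distribution, it was -0.15, with 3 genes higher and 29 lower, while 70.4% of all genes were called. With arrays relative to their median it was 0.76, and with normexp background correction 0.56. The summed signal of the members was 2.3 to 2.86% of all probe signal on liver arrays and 2.3 to 2.81% on adipose arrays. Genes as bright as the middle of the family behaved alike: of 814 such genes, 85.7% were called higher in liver, with a median of 0.67. With only the control ZT1 arrays of both tissues, 3 each and all on slide 1, 7 members were higher and 0 lower, against 35.6% of all genes called. Over all 12 arrays of each tissue, 8 members did not overlap, against 23.3% of all genes.

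**Figure D3:**
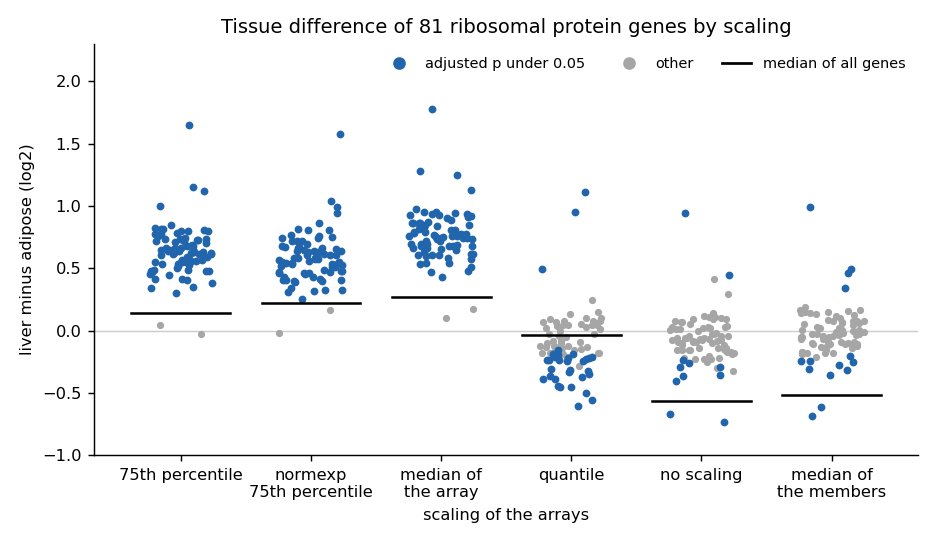
Liver minus adipose difference in log2 units of each of the 81 genes under 6 scalings of the arrays, 1 point a gene. Points in colour passed the limma test and the black bar is the median of all genes. The family sits near 0.63 at the 75th percentile and at -0.15 after quantile normalization, while Rps27l and Rpl7l1 hold the top positions under each scaling.

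**Figure D4:**
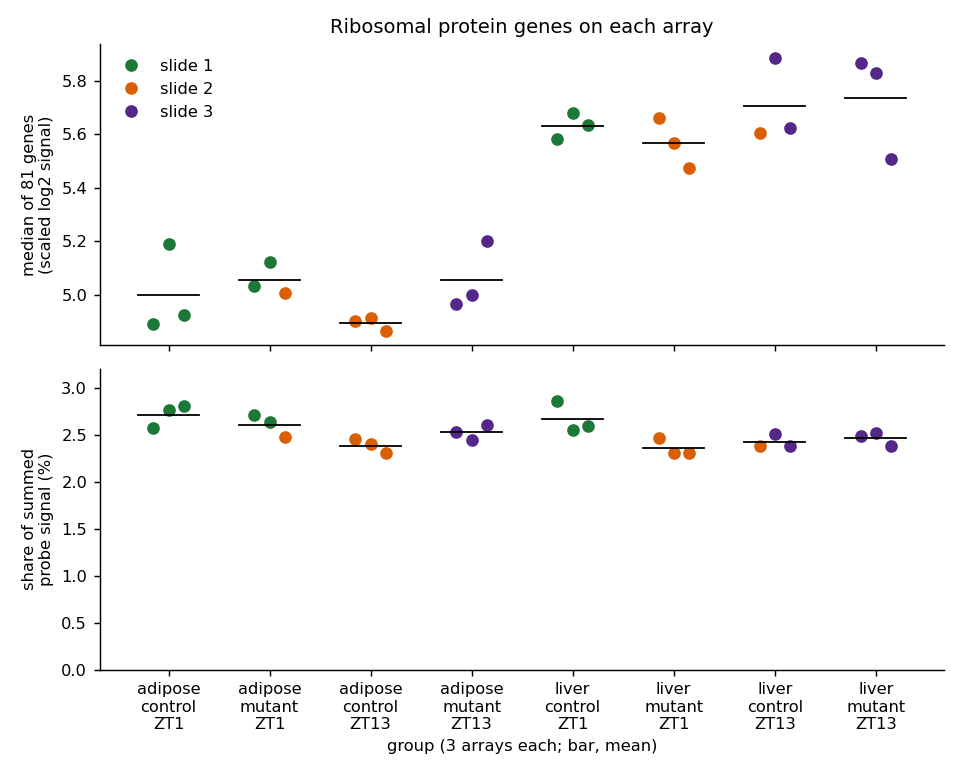
Top, the median scaled log2 signal of the 81 genes on each of 24 arrays, by group and coloured by slide, with the group mean as a bar. Bottom, the share of summed probe signal carried by the family, in percent on an axis from 0. Liver arrays lie at 5.48 to 5.89 and adipose arrays at 4.87 to 5.20 in the top plot, and the shares overlap in the bottom plot.

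Rps27l and Rpl7l1 were the 2 members called higher in liver under all 5 scalings across the whole array. Rps27l encodes a close copy of Rps27 and is a known p53 target. Its scaled signal was 2.12 to 4.40 in adipose, with a median of 4.11, and 4.37 to 5.89 in liver, with a median of 5.60. The tissues touched at 1 liver array, and the difference of 1.65 (SE 0.21, 3.13-fold) had an adjusted p of 5.59e-07. It was 0.95 after quantile normalization and 0.94 without scaling. Rps27, its partner, differed by 0.54 (SE 0.10), with a probe that the array design places at chr9:114891672-114891731 (mm9), on another chromosome than the gene. Rpl7l1 read -1.05 to -0.06 in adipose and -0.09 to 1.26 in liver, and differed by 1.15 (SE 0.10, adjusted p = 3.23e-09), 1.11 after quantile normalization. Its partner Rpl7 differed by 0.56 (SE 0.13).

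Set against the family, with each array relative to the median of its ribosomal protein genes, 4 members were higher in liver and 10 lower, 17.3% of the family against 74.2% of all genes. This scaling takes out the shift that the members share on an array. The median difference became -0.03 for members and -0.52 for all genes. The lower share of members called follows in part from the scaling and is not read as a result about the family. The higher members were Rps27l (0.99), Rpl7l1 (0.49), Rpl36al (0.46), a copy of Rpl36a, and Rps2 (0.34), a small-subunit protein. The lower members were led by Rpl10l (-0.68), Rps19 (-0.62) and Rpl22 (-0.36), which has a part in lymphocyte development. Rplp2 of the stalk, the arm that recruits elongation factors, was also lower (-0.32), while Rplp0 and Rplp1 were not called. In absolute terms, at the main scaling, the stalk genes differed by 0.54 (Rplp0), 0.55 (Rplp1) and 0.34 (Rplp2).

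Other members with known separate roles moved with the family at the main scaling. Rps6 was 0.82 higher in liver (SE 0.11), Rps27a 0.74 (SE 0.09), and Rpl5 and Rpl11, which bind Mdm2 outside the ribosome, 0.48 each (SE 0.20 each). Rpl22 was 0.30 higher and its copy Rpl22l1 0.55. Rps4x was 0.52 higher (SE 0.11), and the probe named Rps4y2, which RefSeq lists as Rps4l, 0.55 (SE 0.13).

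The first bases of these genes were compared because the family is known for its pyrimidine start. RefSeq windows on GRCm38.p6 were found for 64 of the 83 genes. A tract of a C followed by at least 5 bases, each C or T, lay within 15 bases of an annotated start on the gene's strand in 37 of them, 57.8%, against 25.5% of 27025 genes. On the opposite strand the shares were 9.38% and 28.6%. The windows of Rps6, the best known member, and of the genes farthest from the family between tissues are shown, from 15 bases before the annotated start to 15 after, with the tract in capitals.
Rps6: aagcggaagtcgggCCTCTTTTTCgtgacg
Rps27l: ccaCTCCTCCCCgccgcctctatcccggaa
Rps2: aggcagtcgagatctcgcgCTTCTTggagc
Rpl7l1: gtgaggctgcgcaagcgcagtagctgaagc
Rpl36al: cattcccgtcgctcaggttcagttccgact
Rps19: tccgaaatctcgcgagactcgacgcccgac
Rpl22: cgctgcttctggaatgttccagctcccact
Rpl10l: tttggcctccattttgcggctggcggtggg
They lie at chr4:86857353-86857382 (minus strand), chr9:66946071-66946100 (plus), chr17:24720048-24720077 (plus), chr17:46782642-46782671 (minus), chr12:69184053-69184082 (minus), chr7:24884577-24884606 (plus), chr4:152324421-152324450 (plus) and chr12:66284387-66284416 (minus), in that order. A tract is found in Rps6, Rps27l and Rps2 and in none of the other 5 windows. The genes higher against the family therefore include windows with and without it. A match describes these letters and is not a measured start or a site.

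For Rps24 the direction between tissues differed by probe. Rps24 encodes a small-subunit protein whose messenger RNA is known to be spliced in several ways near its 3′ end. One of its 4 probes lists a single RefSeq transcript, and its ends lie 2321 bases apart in the genome, so it crosses at least 1 intron. A second probe just upstream lists 3 transcripts. The first 30 bases of the former, at chr14:25312695-25315015, and all 60 of the latter, at chr14:25311190-25312666 (both mm9, plus strand), are printed since the ratio of these probes carries the result; nothing is set in capitals.
Rps24 probe of 1 transcript: aatgttggtgctggcaaaaagtgagtggag
Rps24 probe of 3 transcripts: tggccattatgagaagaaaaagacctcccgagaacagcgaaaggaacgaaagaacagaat
The probe of 1 transcript was 1.58 log2 units lower in liver than in adipose (SE 0.11, limma adjusted p = 5.18e-11 over all probes), while the other 3 Rps24 probes were higher in liver.

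The log2 ratio of the probe of 1 transcript to the probe of 3 was taken within each array, so that no scaling enters it. It was -0.94 to -0.38 in the 12 adipose arrays, with a median of -0.59, and -3.03 to -1.94 in the 12 liver arrays, with a median of -2.73. No liver array reached an adipose array. The difference of -2.03 corresponds to a ratio 4.09-fold lower in liver (permutation test, two-sided, p = 1e-05, the smallest 100000 permutations can give; adjusted over 9 comparisons 9e-05). The pair was singled out after its values were seen. For genotype and time, the differences in the 8 comparisons within a tissue ran from -0.08 to 0.26, with exact permutation p of 0.1 or more, where 3 arrays against 3 cannot give less than 0.1. A within-array ratio shows unequal change of the probes, not which of them changed.

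**Figure D5:**
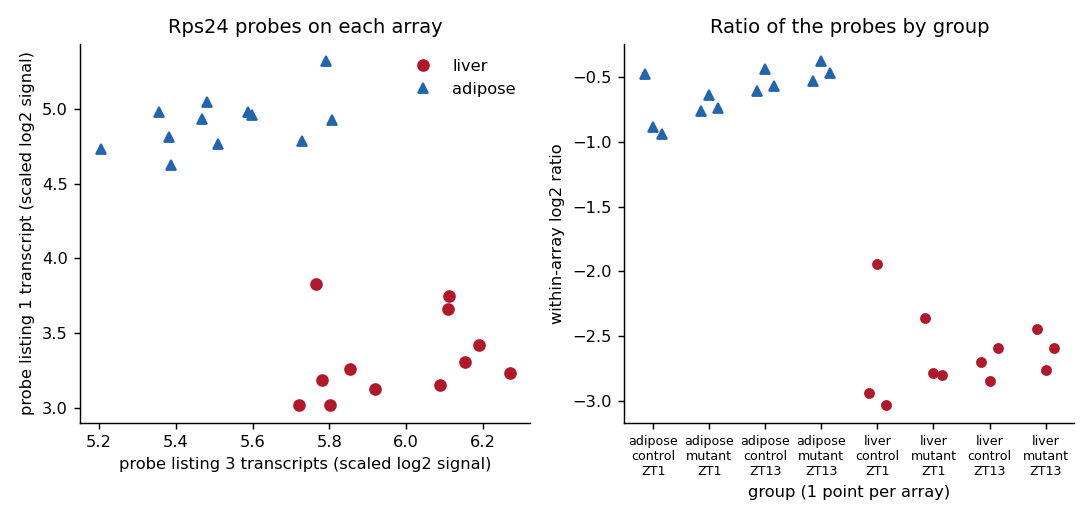
Left, scaled log2 signal of the Rps24 probe listing 1 transcript against the probe listing 3 on each array, liver as circles and adipose as triangles. Right, their within-array log2 ratio by group, 1 point an array. Adipose arrays lie at -0.94 to -0.38 and liver arrays at -3.03 to -1.94 in all 4 combinations of genotype and time.

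For the rest of the family, probes of a gene mostly told the same story between tissues. Of 94 further probes of the 53 genes with more than 1 probe well above background on all arrays, 76 were within 0.25 log2 units of the brightest probe and 86 within 0.5. Of the 94, 85 were called higher and 1, that of Rps24, lower in liver, against 39.9% of all probes called higher. A dim Rpl21 probe outside this count, well above background on 19 of 24 arrays, was also called lower in liver, at -0.43 (adjusted p = 0.00295), while the brightest Rpl21 probe was higher, at 0.69. Rpl6 was an exception in size, with a dim probe at 1.98 (SE 0.14) against 0.80 for its brightest. For 5 genes (Rpl28, Rpl36, Rps27, Rps29 and Rps4x) the brightest probe is placed by the array design on another chromosome than the gene, and copies of these genes elsewhere in the genome may share its signal. The brightest Rps2 probe is placed on the gene's chromosome but away from the gene, at chr17:42864841-42864900, while its other probe lies at chr17:24857583-24857642 (mm9). Between tissues both Rps2 probes were higher in liver, by 0.997 and 0.806.

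The replicate spread of the family was smaller than that of the array as a whole. The median SD within a group was 0.251 log2 units for members and 0.376 for all genes, but 0.252 for the 814 genes of like brightness. Rps15a varied least, with an SD of 0.084, followed by Rpl35a at 0.13. Rps21 (0.614), Rpl10l (0.605), Rps26 (0.568) and Rps27l (0.538) varied most.

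Other parts of the translation machinery were counted the same way, from lists chosen by function. Between tissues, at the main scaling, all 4 ribosomal protein genes listed outside the name rule were higher in liver, by 0.41 to 0.76. Among them were Rpsa (0.41), Fau (0.52) and Rack1 (0.66). All 9 elongation genes were higher, with a median of 0.65, among them Eef1a1, which brings aminoacyl-tRNA to the ribosome (0.80), and Eef2, the translocase (0.45). Of 77 mitochondrial ribosomal protein genes 67 were higher and 3 lower, and of 34 initiation genes 20 were higher and 1 lower. Proteasome subunits, outside translation, had 30 of 31 higher and a median of 0.71. Beside these lists, 41.9% of all genes were called higher in liver, and the median of all genes was 0.14.

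Of 20 genes of the mTORC1 and S6 kinase pathway, which controls translation of the family's messages, 9 were higher and 7 lower in liver. Their median was 0.137. Over all 24314 genes tested, 10197 were higher and 8137 lower, with a median of 0.14, so this list was close to the array as a whole. Eif4ebp3, an inhibitor of cap-dependent initiation, was 1.89 higher (SE 0.12), and Eif4ebp1 of the same family 1.32 lower, its difference being -1.32 (SE 0.12). Larp1, which binds pyrimidine-start messages, was 0.67 higher (SE 0.09), and Eef2k, the kinase of elongation factor 2, had a difference of -1.71 (SE 0.12). RNA polymerase I and ribosomal RNA genes gave 11 higher and 4 lower of 22, with a median of 0.295 against 0.14 over all genes. Between genotypes in liver at ZT13, limma called 0 genes of each of these 7 lists, against 3.02% of all genes. Before adjustment, p was under 0.05 for 5 of 20 mTORC1 genes and 5 of 77 mitochondrial ribosomal protein genes, for 2 initiation and 2 polymerase I genes, for 1 proteasome gene and for none of the remaining lists. These unadjusted counts have no share over all genes beside them and are not read as a signal of any list.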

How the data were processed

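The authors deposited the scanner output of 24 single-colour Agilent arrays; each value used is a processed intensity, background-corrected by the scanner software per the file headers. A deposited table of log2 values differed from the log2 of these intensities by a constant per array. Here log2 intensity minus the array's 75th percentile was used, control spots and outlier flags were left out, and spots of a probe were averaged. Groups were taken from the labels. Linear models were fitted with limma 3.58.1 in R 4.3.3, on the 12 arrays of a tissue or, between tissues, on all 24, over genes that reached the scanner's above-background flag in all 3 arrays of some group, with Benjamini-Hochberg adjustment and a threshold of 0.05. The code was tested on simulated data. Members and lists were chosen with earlier results of these data known. Named genes were the 5 per direction with the largest difference among called members whose groups did not overlap, or the 3 of lowest p where fewer than 3 passed, and the paralogue-like, stalk and other members with known roles. Lists covered ribosomal proteins outside the name rule, elongation, initiation, mTORC1, RNA polymerase I, mitochondrial ribosomal proteins, proteasome and markers of hepatocytes, adipocytes, macrophages, T cells, B cells, neutrophils, erythroid cells, endothelium, fibroblasts, mesothelium, muscle and proliferation. Alternatives were other scalings, background corrections and filters, all probes of a gene, slide and replicate blocks, and leaving out each array.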

Additional observations from a re-analysis of the deposited data

Results flagged for a closer look

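In liver, the difference between ZT13 and ZT1 differed between genotypes by the test of the genotype-by-time term for 8 members. That is 9.88% of the family, against 31.2% of all genes. The term was 2.17 for Rpl10l (SE 0.52, limma adjusted p = 0.0109), 1.12 for Rpl28 (SE 0.37, adjusted p = 0.0397), 0.93 for Rpl38 (SE 0.28, adjusted p = 0.0277) and 0.82 for Rps13 (SE 0.27, adjusted p = 0.0415). It was 0.80 for Rpl10a (adjusted p = 0.0406) and 0.79 for Rpl27a (adjusted p = 0.0239). It was negative for Rpl21, at -1.24 (adjusted p = 0.00473), and for Rps19, at -0.66 (adjusted p = 0.0202). Another Rpl27a probe gave a term of -0.99 (adjusted p = 0.019 over all probes), opposite in sign to its brightest probe. Another Rpl21 probe gave -0.81 (adjusted p = 0.036), the same sign as its brightest. All control ZT1 arrays of liver were on slide 1 and no other liver array was. With slide as a fixed or random block, 0 of the 81 members passed, but the SE of Rpl21 was 0.395 with the fixed block and 0.247 without. The share of all genes passing with the block is not given here, so that count is not read as a result about the family.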

How the results depend on the processing

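Members called under other settings are given here as counts of 81, with the share of all genes called in brackets for some. Calls over all genes moved with the settings too, so a change in these counts is not a result about the family. Fitting all 8 group means together gave 14 in liver between genotypes at ZT1, 2 for the liver genotype-by-time term, 22 in control adipose over time and 5 in mutant adipose over time. The mean of all probes gave 4 for the liver term and 1 in control adipose, and no filter gave 16 in liver at ZT1, 2 for the term and 3 in control adipose. Normexp gave 26 in control liver over time and 11 in control adipose. Quantile normalization gave 1 in control adipose and 32 between tissues (70.4% of all genes), with medians of 0.009 and -0.15. Array-median scaling gave 32 in liver at ZT1 (44.6% of all genes), 57 in control liver, 17 for the term and 6 in control adipose (18.3%). Its medians were 0.33 in liver at ZT1, -0.34 for the term, 0.23 in control adipose and 0.76 between tissues. No scaling, chosen after seeing the data, gave 50 in liver at ZT1 (52.7% of all genes), 54 in control liver, 18 for the term, 1 in control adipose (12.2%) and 11 between tissues (71.6%). Its medians were 0.67, -0.68 for the term, 0.58 in control adipose, -0.18 for the adipose term, -0.014 in adipose at ZT13 and -0.079 between tissues, and it turned Rpl10a (0.051 and -0.09), Rpl29 (0.038), Rpl38 (0.023) and Rps13 (-0.067). Scaling to the members, also chosen after seeing the data, gave 3 for the term, 3 in control adipose and 14 between tissues (74.2% of all genes), with a median of -0.03. With slide as a fixed or random block 0 were called in liver at ZT1, control liver, the liver term and control adipose. The fixed block turned Rpl21 (-0.32 in liver at ZT1, -0.46 in control liver, 0.37 for the term), Rpl28 (0.24, 0.37 and -0.20), Rpl38 (0.15 and -0.11), Rpl29 (0.10) and Rpl6 (-0.91), and gave medians of 0.068 in liver at ZT1, -0.11 for the liver term and -0.023 for the adipose term. On slide 1 alone 7 were called between tissues. Leaving out 1 array gave 14 to 42 in liver at ZT1, 10 to 35 in control liver, 2 to 22 for the liver term, 0 to 6 in control adipose, 0 to 19 in mutant adipose and 77 to 79 between tissues. With the replicate number as a block 1 was called in control adipose. Replicate numbers did not pair the arrays: in no pair of groups did all same-numbered arrays correlate above 0.1, and r ran from -0.51 to 0.35. The cause of these changes was not tested. The number of arrays and the placement of groups on slides limit what can be told here.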
